A study of Homo sapiens with 42 samples.

Results

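Human chromosome 14 in HCC2935, an EGFR-mutant lung adenocarcinoma cell line, was profiled in control cells, in drug tolerant persister (DTP) cells and in persister cells given a second drug. Its members were all regions of the deposited count table of the line that lie on chromosome 14 and hold a mean of at least 5 counts per library. This left 15018 of the 25131 regions with any count on the chromosome, which are 6.74% of the 222913 regions of the line at the same minimum. The same rule gave 5462 regions in PC9, 10000 in H1975 and 5419 in HCC827, so that 35899 of the 1712125 regions of the 4 tables were used. The chromosome was chosen for the size of its change between persister and control libraries of HCC2935. That change is therefore given as a description, without a test.

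The series held 42 ATAC-seq libraries in 14 groups of 3, which the labels call biological triplicates. DTP cells were exposed to 500 nM osimertinib for 24 days. The sequential combination, called combo here, was 21 days of 500 nM osimertinib and then 3 days of 150 nM AZD5153. Controls, called DMSO here, were drug-free for 21 days and received DMSO for the last 3 days, and PC9 and H1975 also had an AZD5153 group without osimertinib before it. All groups came from established EGFR-mutant lines in monolayer culture, with 1 line per table and 9 libraries for HCC2935. Whether the cells stayed in osimertinib while they received AZD5153 is left unsaid by the labels, whose extraction protocol describes a chromatin immunoprecipitation although titles and design name ATAC-seq.

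ATAC-seq counts the places where a transposase can enter the chromatin, so a region is counted more often when it is open in more cells, more open in each cell, or present in more DNA copies. In these bulk libraries, which were not set beside a DNA measurement of the same cells, such contributions cannot be told apart. Osimertinib blocks mutant EGFR, and persisters are cells that live through such treatment in a drug-tolerant and often reversible state. AZD5153 is a second drug, directed at chromatin rather than at EGFR. Chromosome 14 carries its genes on the long arm. Among them are the lung lineage factor NKX2-1 and the pioneer factor FOXA1, the AP-1 genes FOS, BATF and JDP2, the hypoxia factor HIF1A, the SERPINA cluster of protease inhibitors and the imprinted DLK1-DIO3 locus.

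The promoters of 4 genes are shown because their regions, spread along the chromosome, ranged from level in DTP at APEX1 to lower at NKX2-1, BCL11B and XRCC3. APEX1 encodes a base excision repair enzyme, BCL11B a zinc finger factor and XRCC3 a protein of recombination repair. Each sequence is the 250 bases before the gene start in RefSeq, build GRCh38.p14, written in the direction of the gene, and lies at chr14:20454976-20455225 (+) for APEX1, chr14:36520233-36520482 (-) for NKX2-1, chr14:99272198-99272447 (-) for BCL11B and chr14:103715452-103715701 (-) for XRCC3. Capitals mark matches on either strand. The GC box, bound by Sp1-like factors, was searched as GGGCGG, the CCAAT box by its own letters, the E-box of basic helix-loop-helix factors as CACGTG, and the site bound by AP-1 dimers as TGANTCA.
APEX1: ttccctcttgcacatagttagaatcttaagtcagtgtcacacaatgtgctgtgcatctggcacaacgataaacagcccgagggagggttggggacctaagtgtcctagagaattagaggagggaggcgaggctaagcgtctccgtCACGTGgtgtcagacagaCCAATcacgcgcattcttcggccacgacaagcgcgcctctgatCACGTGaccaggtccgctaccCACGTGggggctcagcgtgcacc
NKX2-1: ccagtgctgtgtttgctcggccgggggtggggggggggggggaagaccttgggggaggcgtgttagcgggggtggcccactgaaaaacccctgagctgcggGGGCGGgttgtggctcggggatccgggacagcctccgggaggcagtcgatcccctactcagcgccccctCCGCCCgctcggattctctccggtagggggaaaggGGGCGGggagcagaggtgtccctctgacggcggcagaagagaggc
BCL11B: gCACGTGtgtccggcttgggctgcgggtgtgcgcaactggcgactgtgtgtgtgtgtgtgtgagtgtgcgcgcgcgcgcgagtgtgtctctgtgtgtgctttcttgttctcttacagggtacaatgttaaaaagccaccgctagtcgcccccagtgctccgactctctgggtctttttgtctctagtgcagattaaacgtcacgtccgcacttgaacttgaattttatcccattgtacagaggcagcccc
XRCC3: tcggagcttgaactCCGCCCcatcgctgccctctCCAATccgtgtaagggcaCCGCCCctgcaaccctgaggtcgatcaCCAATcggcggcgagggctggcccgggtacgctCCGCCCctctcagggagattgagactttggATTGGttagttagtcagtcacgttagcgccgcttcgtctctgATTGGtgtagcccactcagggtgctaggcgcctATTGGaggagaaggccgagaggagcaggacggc
All of the APEX1, BCL11B and XRCC3 windows and 207 bases of the NKX2-1 window were inside the measured region. The windows differed in what they hold. APEX1 had 3 E-boxes and 1 CCAAT, NKX2-1 had 3 GC boxes, BCL11B had 1 E-box, and XRCC3 had 3 GC boxes and 5 CCAAT. Over 1158 promoter windows of chromosome 14 the GC box was found in 42.5%, CCAAT in 32.4%, the E-box in 5.27% and the AP-1 site in 5.61%. Over the 35097 windows of all chromosomes these shares were 42.6%, 32%, 6.34% and 6.57%.

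Total counts were 3968690 to 8066287 in the HCC2935 libraries, with controls at the low end. Replicate pairs of HCC2935 differed by 1.18 to 1.83 times the variance that counting gives, those of HCC827 by 1.21 to 8.76 times, those of PC9 by 0.959 to 1.04 times and those of H1975 by 0.966 to 1.22 times. In 8 of 12 pairs of PC9 and 5 of 12 of H1975 no excess over counting noise was found, and p-values in these lines measure a spread that may be technical. In HCC827 the libraries numbered 3 stood apart by depth, and replicate number 1 of the HCC2935 controls by its peak list, with 100211 peaks against 204759 and 198689 in the other controls. Of the markers chosen for lung and epithelium, NKX2-1, NAPSA and KRT8 had a region with a mean of at least 5 counts at their start in HCC2935, with 27.7 to 32.6, 0.541 to 1.82 and 24.8 to 30.8 CPM in the controls, where CPM is the count of a region scaled to the size of its library. No marker region for blood or fibroblasts, nor for EPCAM, CDH1 and KRT18, was among the regions analysed here.

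Chromosome 14 took a smaller share of the counts in persisters than in controls of HCC2935. Of all counts in the table, 7.34%, 7.72% and 7.71% fell on chromosome 14 in the 3 DMSO libraries. The DTP libraries had 5.58%, 5.59% and 5.66%, and the combo libraries 5.75%, 5.47% and 5.75%. All libraries of both drug groups lay below all controls, and the means were 7.59% ± 0.218 in DMSO, 5.61% ± 0.0445 in DTP and 5.66% ± 0.162 in combo (SD, n = 3). The difference was -1.98 percentage points for DTP and -1.93 for combo. In the peak lists, called by the authors in each library, both drug groups also lay below all controls. There 6.27% to 7.998% of the peaks were on chromosome 14 in DMSO, 4.41% to 4.54% in DTP and 4.29% to 4.52% in combo. Among peaks with a -log10 q value of at least 5 the shares were 5.80% to 5.94% in DMSO and 4.34% to 4.39% in DTP.

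**Figure D1:**
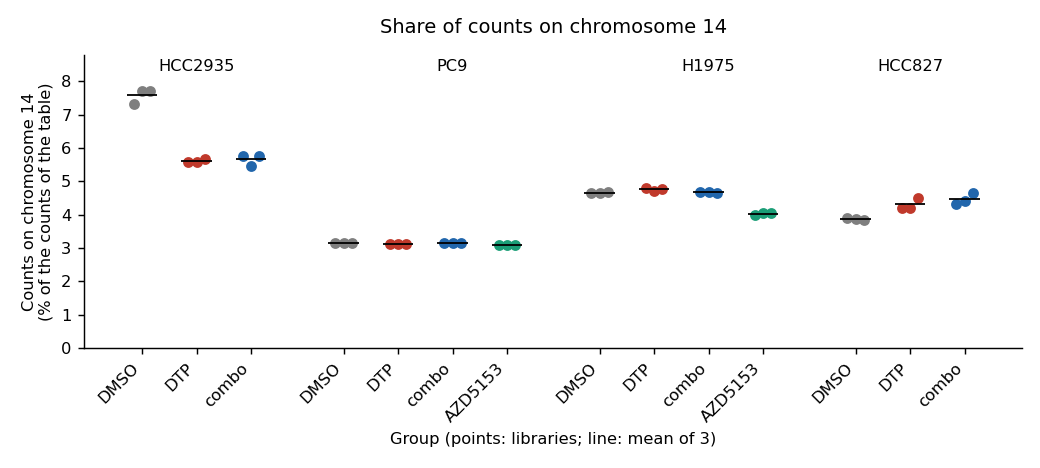
Share of all counts of a library that lie on chromosome 14, in percent on the vertical axis, for each library of the 4 lines by group, with the mean of each group as a bar. The HCC2935 controls sit at 7.34% to 7.72% and its DTP and combo libraries at 5.47% to 5.75%, while the groups of PC9 stay within 3.09% to 3.16%.

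Region by region, the median change of DTP against DMSO on chromosome 14 was -0.62 on the log2 scale, against 0.00 over the regions of all other chromosomes. The middle of the distribution was wide, from -1.56 at percentile 10 to 0.47 at percentile 90. A change below 0 was found in 78.6% of the members and in 49.8% of the regions elsewhere. The 3 DTP libraries had medians of -0.49, -0.53 and -0.44 against the mean of the controls, on a scale of log2 CPM with a prior count of 2 that draws weak regions towards 0. On the same scale the controls themselves lay at -0.03, 0.05 and 0.02, and the combo libraries at -0.42, -0.62 and -0.40. The combo median from the fit was -0.63. No other chromosome had a median this low, the next being -0.24 on chromosome 7 and -0.19 on chromosome 10, and the highest was 0.47 on chromosome 4.

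Of the members, 762 passed an edgeR adjusted p of 0.05 as higher in DTP than in DMSO and 4391 as lower, together 34.3% of them where 28.3% of all regions of the line passed. With DESeq2 2751 members passed, 18.3% of them, beside 16.3% of all regions. Over all regions 13.6% passed as lower and 14.6% as higher. For combo against DMSO 4978 members passed, 790 higher and 4188 lower, beside 32% of all regions, 16.7% as higher and 15.3% as lower. In 39.0% of the members every DTP library was below every control, and in 7.17% every DTP library was above, beside 19.5% and 20.9% of all regions. For combo these shares were 36.9% and 7.06%, beside 20% and 21.7%. Nothing is read from these counts, because the chromosome was picked on this contrast. Both drug groups were set against the same 3 controls.

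In 1 Mb steps the change ran along nearly the whole chromosome but was not even. Of 88 steps with members, 79 held at least 20, together 14968 regions. The step at 93 to 94 Mb held no member, while those before and after it held 287 and 141. Their medians were below 0 in 72 steps, at or below -0.3 in 63 and at or above 0.3 in 4. In 68 steps all 3 DTP libraries were below all 3 controls, and in 7 they were above. The combo libraries were below all controls in 65 steps and above in 6, and combo and DTP libraries were apart in 3. Steps of other chromosomes were not counted in this way, so these counts have no background beside them. Nothing is read from them, because the chromosome was picked on the contrast with these controls. The median SD of a step over the libraries of a group was 0.065 in DTP, 0.067 in DMSO and 0.125 in combo, and the SD of the DTP medians over the 79 steps was 0.46.

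The lowest step was at 94 to 95 Mb, with 141 regions and a median of -1.48. There the DTP libraries had -1.14, -1.30 and -1.12, and the controls -0.12, 0.06 and 0.10. The highest was at 29 to 30 Mb, where 32 regions had a median of 1.15 and the DTP libraries 1.22, 1.06 and 1.14. The steps at 25 and 26 Mb had 1.13 and 0.87. A single step at 79 to 80 Mb, with 77 regions, had a median of 0.63 and DTP libraries at 0.57, 0.58 and 0.44, while its neighbours on either side had -0.87 and -0.84. In the combo libraries the same step had 0.56, 0.68 and 0.52. In each of these steps the DTP libraries did not overlap the controls, but the steps were picked for their medians in the same libraries. The high steps were weak in controls. Their median control log2 CPM was 0.37, 0.63, 0.42 and 0.64 at 25, 26, 29 and 79 Mb, against 1.37 at 94 Mb.

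A piecewise-constant fit to the medians of all 88 steps, each weighted by its regions, divided the chromosome into 7 stretches, given here in hg38 coordinates. The first, from 18673511 to 24710820, had a DTP median of -0.08 over 983 regions. The second, to 28103307, held 119 regions and lay higher, at 0.97 in DTP and 1.17 in combo. Its DTP libraries had 0.95, 0.83 and 0.69, and its combo libraries 0.91, 0.91 and 0.97. The third, to 35121579, had -0.16 over 730 regions.

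From there on the medians were lower. The fourth stretch, from 35121728 to 71896509, spanned 36.8 Mb and had -0.45 over 5091 regions. Its DTP libraries stood at -0.36, -0.36 and -0.33. The fifth, to 92846915, had -0.73 over 3988 regions, and the sixth, to 101636799, had -1.09 over 2063. The sixth spans the step at 93 to 94 Mb, which held no member. In the sixth the DTP libraries had -0.81, -0.96 and -0.80 and the combo libraries -0.62, -0.97 and -0.76, against -0.07 to 0.08 in the controls. The seventh, to 106883485, had -0.83 over 2044 regions. The share of regions below 0 was 54.6% in the first stretch, 23.5% in the second and 57.7% in the third. It was 73.9%, 83.3% and 93.6% in the fourth to sixth and 88.4% in the seventh.

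Edges were then placed between neighbouring regions within 1.5 Mb of the step edges of the DTP fit. Single libraries and pairs were searched around these same step edges and share controls, so their agreement is partly built in. The first, between 24710820 and 24734923, lies in a gap between GZMB, a protease gene of cytotoxic lymphocytes, and STXBP6, and the same pair of regions was chosen for each of the 3 DTP and 3 combo libraries and for all 9 pairs of a DTP and a DMSO library. The second was within 100 kb of its place in 1 of 3 DTP and 3 of 3 combo libraries. The third was in PPP2R3C beside PRORP, and single libraries put it from 33862035 to 35221611. The fourth was in RGS6, the fifth between GOLGA5 and CHGA, and the sixth in the long noncoding gene LINC02320 between DIO3 and PPP2R5C. For the fifth and sixth all 3 DTP libraries were within 100 kb. Over 15 settings of step, penalty, region set and libraries, an edge was found again within 1.5 Mb of the first in 10, of the second in 9, of the third in 13, of the fourth in 6, of the fifth in 13 and of the sixth in 11. Only regions with a mean of at least 50 counts gave none of the 6 within that distance. The settings included a fit to combo against DMSO, whose step edges were at 25, 28, 34, 76, 79, 86 and 102 Mb. That fit had no edge within 1.5 Mb of the RGS6 edge or of the edge between GOLGA5 and CHGA.

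The descent from the third stretch to the sixth differed with how strongly regions were counted. At members with a mean of at least 20 counts the DTP medians still fell along the chromosome, with 0.08, 1.46, -0.08, -0.27, -0.33, -0.47 and -0.53 in the 7 stretches. At members with a mean of at least 50 counts the DTP medians were -0.00, 1.30, -0.26, -0.31, -0.36, -0.29 and -0.29 in the 7 stretches, with 8 to 563 regions in each. Strong regions on the other chromosomes had a median of 0.14, so the same 7 values stood at -0.14, 1.16, -0.40, -0.45, -0.50, -0.43 and -0.43 against them. At regions with a peak in both DMSO and DTP libraries, a set chosen in the same libraries, the medians were 0.04, 1.03, -0.12, -0.28, -0.34, -0.61 and -0.49. The share of regions with a peak in DMSO libraries only moved with the stretches, at 37.7%, 23.5%, 34.1%, 46.1%, 61.2%, 73.2% and 57.2%. The higher second stretch was seen in each of these sets, though only 8 regions of it had 50 counts or more. The minimum was a mean over all libraries of the line, so regions weak in controls could enter through the drug groups. In the second stretch 37.8% of the regions had a peak in DTP libraries only, against 3.49% to 16.0% in the other stretches.

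**Figure D2:**
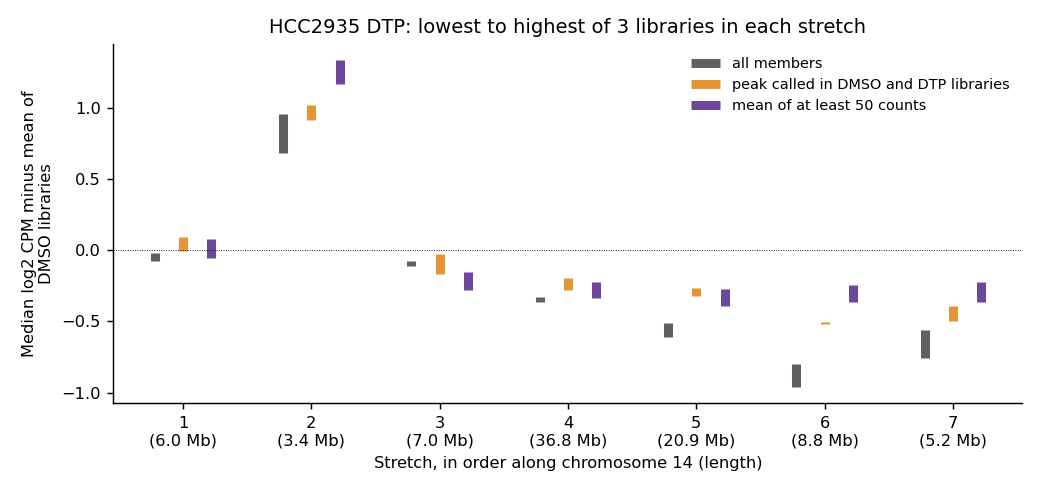
Median change of DTP against DMSO in the 7 stretches of chromosome 14 for 3 sets of regions, on the log2 CPM scale, with lines from the lowest to the highest of the 3 DTP libraries. All members stand at -0.07 to -0.02 in the first stretch, 0.69 to 0.95 in the second and -0.96 to -0.80 in the sixth. Regions with at least 50 counts stay between -0.39 and -0.16 from the third stretch on.

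The size of the change moved with the level of counting in a region and with its support by peaks, on chromosome 14 and elsewhere in the genome. Members with a mean of 5 to 7 counts had a median of -0.75 (-0.24 on other chromosomes) and those of 50 or more had -0.28 (0.14 on other chromosomes). The difference between chromosome 14 and the rest was -0.42 to -0.72 over 5 classes of mean count. By peak support, the 4903 regions with a peak in DMSO and DTP libraries had -0.30 (0.09 elsewhere), the 8116 with a peak in DMSO libraries only -0.96 (-0.63 elsewhere), and the 1309 with a peak in DTP libraries only 0.41 (0.96 elsewhere). Peaks were called in the same libraries, so that the peak classes follow the change itself and these values are a description. The summed CPM fell on both sides of the minimum, and by more at lower counts. It changed by -0.75 on the log2 scale for 3087 regions with a mean of 5 to 6. Below the minimum it changed by -0.83 for 3993 regions with a mean of 4 to 5 and by -0.92 for 6120 with a mean below 4.

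Promoter regions, with their centre within 1 kb of a gene start, were less changed than others. The 1199 promoters of chromosome 14 had a median of -0.29 in DTP and -0.11 in combo, and the 13819 other regions had -0.66 and -0.68. Over the DTP libraries promoters ranged from -0.32 to -0.22 and other regions from -0.56 to -0.46. On other chromosomes promoters were at 0.16 in DTP and 0.36 in combo, and other regions at -0.03 and -0.06. Set against these, promoters of chromosome 14 were lower by -0.45 and other regions by -0.63. The gap between promoters and other regions was 0.37 with an SD over libraries of 0.083, and it was 0.10 among members with a mean of at least 20 counts, 0.14 with the authors' annotation and 0.07 when promoters reached to 10 kb. With 50 counts or more, promoters had -0.21 and other regions -0.32, which is -0.39 and -0.42 against the same classes elsewhere. Beyond 1 kb the medians were -0.71 at 1 to 10 kb, -0.66 at 10 to 100 kb and -0.58 beyond. Against promoters elsewhere in the same of 4 classes of GC content, those of chromosome 14 differed by -0.45 to -0.47 in DTP and -0.45 to -0.49 in combo. The median GC content of the promoter windows was 63.6% on chromosome 14 and 65.2% elsewhere.

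The controls of HCC2935 already differed from the other lines on this chromosome. At 289 promoters with a mean of at least 20 counts in all 4 lines, each library was set against the mean of the controls of the other 3 lines, after removal of the median over 7385 such promoters on other chromosomes. The HCC2935 controls were at 1.60, 1.59 and 1.65 times the other lines, its DTP libraries at 1.27, 1.30 and 1.23 and its combo libraries at 1.24, 1.26 and 1.25. DTP libraries lay between their own controls and the level of the other lines. By the same measure the controls of PC9 were at 0.572 to 0.586, those of H1975 at 1.07 to 1.08 and those of HCC827 at 0.908 to 0.948. HCC2935 controls exceeded those of PC9 by 2.19 times, of H1975 by 1.38 and of HCC827 by 1.59, and HCC2935 DTP exceeded the same controls by 1.67, 1.03 and 1.18. Levels in different lines come from tables that were counted and normalized separately, and they are given as a description.

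Along the chromosome this excess over the other lines was not even, in controls or in DTP. The controls of the other lines varied by stretch as well. By the same measure those of PC9 were at -1.27 in the sixth stretch, -0.26 in the fifth and -0.24 in the seventh. Those of HCC827 went from 0.26 in the first to -0.44 in the seventh. The part of the other lines in the unevenness was not tested. At 50 promoters of the first stretch it was 0.66 to 0.70 on the log2 scale in the controls and 0.55 to 0.57 in DTP. The third held 11 promoters, at 0.86 to 0.90 in controls and 0.33 to 0.47 in DTP. In the fourth stretch, with 108 promoters, it went from 0.79 to 0.82 in controls to 0.35 to 0.41 in DTP. In the fifth, with 66, the values were 0.59 to 0.61 and 0.08 to 0.13, and in the seventh, with 39, they were 0.43 to 0.48 and 0.01 to 0.09. The sixth held 15 promoters, at 0.83 to 1.06 and 0.43 to 0.53. Control and DTP libraries did not overlap in any of these 6 stretches.

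Genes of 10 lists were read at the strongest member region within 1 kb of their start. Of 68 genes 56 had one, 45 of these were below 0 in DTP against DMSO, and their median change was -0.31, near the -0.29 of all promoters of the chromosome. By edgeR 23 passed as lower and 2 as higher, beside 28.3% of all regions of the line and 34.3% of all members that passed either way. Among members with a mean of at least 20 counts, fitted with such regions only, 59.2% passed, beside 42% of all regions. The calls at list genes belong to the contrast that chose the chromosome and are given as a description. With DESeq2 the calls at 10 of these 25 genes were lost, namely ARID4A, DICER1, DIO3, MAP4K5, MEG3, OTX2, PAX9, PRKCH, PSMA3 and YY1. With no filter on low counts, where far more regions are tested, 16 of the 25 were lost, HIF1A, FOXA1 and XRCC3 among them.

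Lung and foregut factors all lay below 0, in the fourth stretch with its median of -0.45. Against that median FOXA1 and NKX2-8 stood higher, by 0.08 and 0.13. NKX2-1, SFTA3 and PAX9 stood at -0.28, -0.58 and -0.97 against it. NKX2-1, which specifies lung epithelium, had 32.6, 27.7 and 29.5 CPM in DMSO, 16.0, 21.4 and 16.4 in DTP and 19.98, 24.6 and 22.5 in combo. Its change was -0.74 in DTP (SE 0.148), and neither drug group overlapped the controls. FOXA1, which opens chromatin for other factors, had 79.7, 70.1 and 69.0 CPM in DMSO, 50.4, 58.8 and 59.8 in DTP and 64.2, 75.6 and 68.8 in combo. The change was -0.38 in DTP (SE 0.109) and -0.07 in combo, where libraries overlapped the controls. SFTA3, next to NKX2-1, and PAX9, a factor of the foregut, had -1.04 and -1.43. The call at FOXA1 was lost without DMSO replicate 1 or DTP replicate 1, and that at PAX9 with DESeq2. NKX2-8 had -0.33 and was the only one of the 5 that did not pass as lower.

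Stress and AP-1 genes did not move as a group, with 1 of 5 higher, 1 lower and a median of -0.11. BATF, an AP-1 partner known from lymphocytes, had 11.9, 11.4 and 12.2 CPM in DMSO, 27.1, 25.7 and 31.7 in DTP and 26.9, 30.5 and 27.2 in combo. It was higher by 1.25 (SE 0.159) in a stretch with a median of -0.73. FOS, an AP-1 subunit, had 24.1, 32.1 and 16.5 CPM in DMSO, 19.3, 19.2 and 22.9 in DTP and 22.9, 22.2 and 27.0 in combo, with overlapping groups and a change of -0.25 (SE 0.159). JDP2, which represses AP-1 targets and lies between FOS and BATF, had 0.36 in DTP and 0.71 in combo. HIF1A, the oxygen-regulated factor, had 92.7, 83.3 and 73.3 CPM in DMSO, 59.1, 64.7 and 61.7 in DTP and 61.0, 68.9 and 67.3 in combo. Both drug groups were below all its controls, with -0.43 (SE 0.106) in DTP. NFKBIA, the inhibitor of NF-kappaB, had 29.5, 27.7 and 29.8 CPM in DMSO and 27.1, 29.3 and 24.2 in DTP, which overlapped.

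In the first stretch the repair gene APEX1, shown above by its E-boxes, had 26.7, 27.7 and 24.3 CPM in DMSO, 24.9, 27.7 and 27.0 in DTP and 28.1, 29.9 and 31.7 in combo. DMSO and DTP overlapped, and the change was 0.01 (SE 0.138). All combo libraries lay above both, by 0.18 against DMSO (SE 0.136), which did not pass. Towards the other end XRCC3 had 110.9, 121.6 and 107.4 CPM in DMSO, 72.3, 85.6 and 85.2 in DTP and 82.0, 90.5 and 88.9 in combo. All drug libraries of XRCC3 were below the controls, with -0.48 in DTP (SE 0.0991). BCL11B had 16.8, 15.01 and 16.2 CPM in DMSO, 5.91, 7.39 and 6.88 in DTP and 8.10, 5.72 and 7.88 in combo. The change of BCL11B was -1.25 in DTP and -1.16 in combo, close to the median of its stretch.

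**Figure D3:**
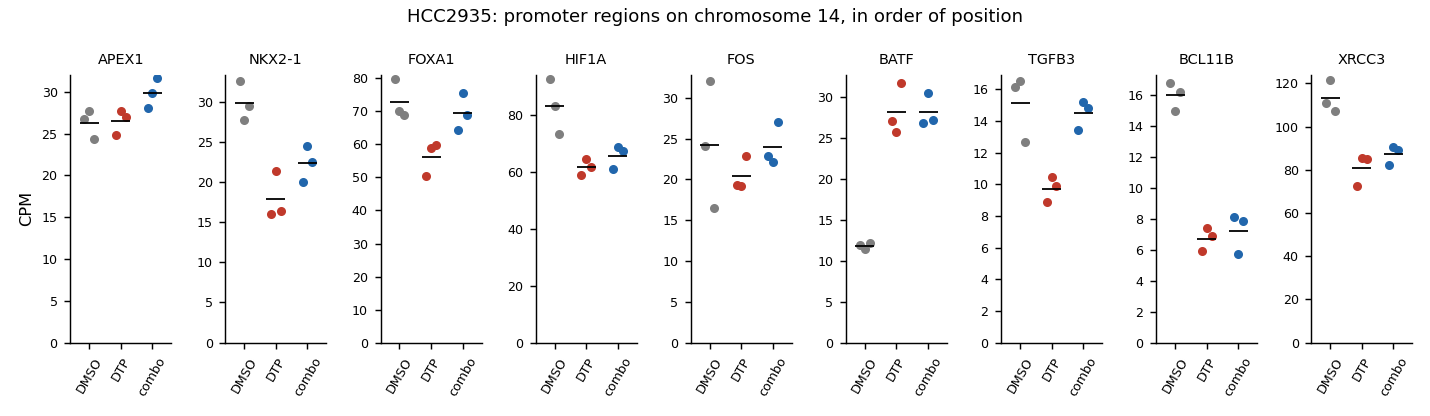
CPM in the promoter regions of 9 genes in order of position on chromosome 14, with 1 point per HCC2935 library, a bar at the mean of each group and separate vertical axes from 0. APEX1 is level between DMSO and DTP at 24.3 to 27.7, with combo at 28.1 to 31.7. BATF stands at 25.7 to 31.7 in the drug groups against 11.4 to 12.2 in DMSO, and NKX2-1, HIF1A, BCL11B and XRCC3 have all drug libraries below all controls.

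Among developmental factors and ligands 5 of 8 genes were measured and 3 passed as lower, among them the ligand TGFB3 with -0.64 and the homeobox genes SIX4 with -0.47 and OTX2 with -1.11. The call at OTX2 was lost with DESeq2, without DMSO replicate 1 or 3 and without any 1 of the DTP libraries, and that at TGFB3 without DTP replicate 1. All 6 cell cycle genes were below 0, from -0.50 to -0.08, and 1, the splicing-associated gene PNN, passed. Of 6 DNA repair genes measured 2 passed as lower, XRCC3 and the polymerase subunit POLE2 with -0.81, whose call was lost without DTP replicate 3. Of 9 growth signalling genes 3 passed as lower, the kinases MAP3K9, PRKCH and MAP4K5. PRKCH and MAP4K5 no longer passed with DESeq2, with its size factors in edgeR or without any 1 of the DTP libraries, and MAP3K9 no longer passed without DTP replicate 3. SAV1, a Hippo pathway scaffold, had 10.7, 10.9 and 8.66 CPM in DMSO, 9.38, 10.9 and 10.6 in DTP and 13.95, 16.5 and 15.8 in combo, so only combo was apart. AKT1 had 5.26, 4.66 and 4.60 CPM in DMSO, 3.30, 3.54 and 4.06 in DTP and 3.45, 2.51 and 2.25 in combo. All drug libraries of AKT1 were below the controls, with -0.42 (SE 0.293) in DTP and -0.83 in combo.

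Of 8 chromatin genes 3 passed as lower, BCL11B, YY1 with -0.28 and ARID4A with -0.29, and 1 as higher. The latter was DICER1, which processes microRNAs, with 1.01, 0.259 and 2.16 CPM in DMSO and 2.09, 2.77 and 2.65 in DTP, a change of 1.14 (SE 0.45) on a mean of 9.33 counts with overlapping libraries. The calls at YY1, ARID4A and DICER1 were lost with DESeq2, those at YY1 and ARID4A also without any 1 of the DTP libraries, and that at DICER1 with library size as the only scaling. Of 5 proteostasis genes the proteasome subunit PSMA3 and the chaperone HSPA2 passed as lower, both with -0.39, and PSMA3 no longer passed with DESeq2 or without any 1 of the DTP libraries. The 4 measured genes of the SERPINA cluster, of 8 listed, ranged from -2.39 to -1.08, and SERPINA4 and SERPINA3 passed. Their mean counts were 5.67 to 8.11, near the minimum of 5, and the median of their stretch was -1.09. Against it SERPINA5 and SERPINA12 stood at 0.01 and -0.20, SERPINA3 and SERPINA4 at -1.08 and -1.30. SERPINA4 had 3.24, 3.11 and 4.60 CPM in DMSO and 0.695, 0.616 and 0.705 in DTP. In the imprinted locus MEG3, a long noncoding RNA gene, had 2.23, 3.36 and 3.52 CPM in DMSO, 0.869, 1.69 and 1.23 in DTP and 1.55, 1.12 and 1.69 in combo, with -1.20 (SE 0.402) in DTP and no overlap with the controls. DIO3, a deiodinase gene, had -1.25 and RTL1 -0.20. The calls at MEG3 and DIO3 were lost with DESeq2 and without DTP replicate 1.

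Single regions departed far from the stretch around them. The 3 largest departures downwards were regions nearest to LINC02296, 182486 bases from its start (87430727 to 87431228), in ZNF410, annotated by the authors as 5′ UTR (73873536 to 73874037), and in intergenic sequence by PPP1R36 (64602878 to 64603379). The first had 43.5, 22 and 31.1 CPM in DMSO against 0.52 to 1.69 in DTP, and their changes were -4.99 (SE 0.281), -4.41 (SE 0.353) and -3.69 (SE 0.329). The largest departures upwards were by LOC124903294 in the second stretch, by LOC105370588 in the isolated high step at 79 Mb and in an intron of RPS6KA5, a kinase gene. The first of them, at 24934264 to 24934765, had no count in any control and 3.30, 2.31 and 3.88 CPM in DTP. The region by LOC105370588, at 79116830 to 79117331, had 0.202, 0.518 and 0.541 CPM in DMSO and 6.08, 5.54 and 4.94 in DTP. The RPS6KA5 region, at 90981671 to 90982172, had 1.21, 1.04 and 0.541 CPM in DMSO, 13.2, 14.8 and 9.70 in DTP, and 4.31, 4.46 and 6.003 in combo. In all 3 the combo libraries were also above the controls.

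After AZD5153 the persister libraries overlapped those without it in their share of counts on the chromosome. This comparison shares its DTP libraries with the one that chose the chromosome. The share of counts was 0.0453 percentage points higher in combo than in DTP (exact two-sided permutation p = 0.8, adjusted 0.8 over 10 such tests, with 0.1 the smallest p that 3 against 3 allows). It was 0.139 without combo replicate 2 and -0.0015 without either of the others, so that 1 library decides its sign. The median change of combo against DTP over the members was 0.04, with combo libraries at -0.14 to 0.08, and it was 0.03 on the other chromosomes. By edgeR 513 members passed, 135 higher and 378 lower, which is 3.42% beside 4.98% of all regions. The count was 170 with DESeq2 (1.13%, beside 1.47% of all regions), 276 when DTP replicate 2 was left out, 299 when DTP replicate 1 was, and 321 when combo replicate 2 was. Over all regions 1.19% passed as higher and 3.78% as lower.

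By the same test 5 list genes rose from DTP to combo and none fell. They were PSMC1, a proteasome ATPase, the ligands BMP4 and TGFB3, the CDK-activating kinase subunit MNAT1 and SAV1. PSMC1 had 10.3, 11.2 and 11.6 CPM in DTP and 17.4, 18.8 and 19.0 in combo, a change of 0.73 (SE 0.166, edgeR adjusted p = 0.00243). BMP4 had 18.3, 18.5 and 17.1 CPM in DTP and 25.7, 28.6 and 26.3 in combo, a change of 0.58 (SE 0.141, edgeR adjusted p = 0.00516, and 0.0549 without DTP replicate 3). TGFB3, MNAT1 and SAV1 had changes of 0.57, 0.67 and 0.58 with edgeR adjusted p of 0.0422, 0.0355 and 0.0367. These last 3 no longer passed with DESeq2 or without several of the libraries in turn, DTP replicate 1 among them. Promoters of the chromosome as a class had a median of 0.19 from DTP to combo. The largest rises among single regions were nearest to NOVA1-DT (26702840 to 26703341, 1.86, SE 0.375, edgeR adjusted p = 0.000559) and in intergenic sequence by OXA1L (22691092 to 22691593, 1.63). The largest falls were at NYNRIN, annotated as promoter and 2525 bases from the gene start (24396228 to 24396729, -2.73, SE 0.391, edgeR adjusted p = 8.71e-07), and in a KCNK13 intron (90115674 to 90116175, -2.67). The NYNRIN region had 3.82, 4.93 and 6.88 CPM in DTP and 1.21, 0.697 and 0.375 in combo, against 0.271 to 1.81 in DMSO, so that combo and control libraries overlapped while DTP stood apart.

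In the other lines the share of counts on the chromosome changed by less, and not in 1 direction. In PC9 the share was 3.15% ± 0.0105 in DMSO, 3.12% ± 0.011 in DTP and 3.15% ± 0.0071 in combo. In H1975 it was 4.66% ± 0.0229, 4.76% ± 0.0493 and 4.68% ± 0.0201. In HCC827 it was 3.87% ± 0.0206, 4.31% ± 0.179 and 4.46% ± 0.182 (SD, n = 3 in each). Every DTP library was above every control in H1975, by 0.107 percentage points in the mean, and in HCC827, by 0.441, and below in PC9, by 0.023. Each of these 3 had an exact two-sided permutation p of 0.1, the smallest the design allows, and 0.167 adjusted over 10 tests. The AZD5153 libraries of H1975 had 3.99% to 4.05%, below all its other libraries. The fitted medians of DTP against DMSO were -0.03 in PC9, 0.01 in H1975 and 0.21 in HCC827, beside 0.01, 0.02 and 0.05 on the other chromosomes of each.

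Step medians varied less in the other lines, with an SD of 0.155 over 58 steps in PC9, 0.309 over 67 in H1975 and 0.200 over 62 in HCC827. The second stretch, higher in HCC2935, was higher in them too, at 1.54 in H1975 (34 regions), 0.50 in HCC827 (38) and 0.37 in PC9 (37). The sixth stretch, the lowest in HCC2935, had -0.19 in H1975, -0.10 in PC9 and 0.08 in HCC827. Among steps with at least 20 regions that at 53 to 54 Mb was the highest in each of the other lines, with 1.20 in H1975, 0.87 in HCC827 and 0.48 in PC9, and it had -0.27 in HCC2935. The step at 79 to 80 Mb had 1.04 over 18 regions in H1975, 1.15 over 10 in HCC827 and -0.41 over 6 in PC9.

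In PC9 1204 members passed for DTP against DMSO, 566 higher and 638 lower, which is 22.04% beside 25.2% of all regions of the line. It was 639 with libraries of a group summed and the spread of HCC2935, 588 with DESeq2 (10.8%, beside 12.8% of all regions) and 1198 with library size as the only scaling. In H1975 4290 passed, 2159 higher and 2131 lower, 42.9% beside 44.1%, and with library size as the only scaling 2904 were higher and 1675 lower, where the median of all regions moved to 0.22. In HCC827 none passed by edgeR, beside 0% of all regions, although 554 had an unadjusted p under 0.05 and DESeq2 passed 10. With the replicate number as a block, 206 passed in HCC827, 187 higher and 19 lower, which is 3.801% beside 2.96% of all regions. The block was tried because same-numbered libraries deviated together, and a pairing of the cultures is not known. The HCC827 libraries numbered 3 also stood apart by depth, whose part in this was not tested.

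The largest change upwards in PC9 was in intergenic sequence by DHRS2, a reductase gene (23604785 to 23605286), with 0 to 0.473 CPM in DMSO and 7.95, 11.97 and 10.1 in DTP (log2 change 5.14, SE 0.433, edgeR adjusted p = 7.54e-27). The largest fall was at a region annotated as promoter and 53060 bases from the gene start of ZFYVE26 (67763280 to 67763781), from 7.23, 7.09 and 10.0 to 0.682, 0.958 and 0.702 CPM. In H1975 a region 7757 bases from LOC107984685 (28999680 to 29000181) had no count in DMSO and 1.79, 4.57 and 2.48 CPM in DTP, and a region annotated as promoter and 55427 bases from the gene start of TTLL5 (75716423 to 75716924) fell from 10.2, 9.85 and 8.59 to 0 to 0.223 CPM (log2 change -6.22, SE 0.369, edgeR adjusted p = 3.44e-46). NKX2-1 did not pass in any of the other lines, with 0.18 in PC9, -0.15 in H1975 and 0.02 in HCC827.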

How the data were processed

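The analysis of HCC2935, with PC9, H1975 and HCC827 beside it, started from deposited ATAC-seq tables. The authors deposited a table of raw counts per line in regions 502 bases wide, and a peak list per library with the q value of each peak as −log10. The submitters' processing notes name hg38, BWA 0.7.17, SAMtools 1.9, deepTools 3.4, MACS2 2.2.6, featureCounts 2.0.0 and ChIPseeker 1.29.1. Their settings, and any shift of insert ends, were not given in the sources used here. The paper given with the series does not describe these libraries.

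The members, gene lists and named-region rule were chosen with earlier results of these data known. Each line was fitted on its whole table (mean of at least 5 counts per library) with edgeR 4.0.16 in R 4.3.3, TMM factors and the quasi-likelihood F test, all groups in 1 fit, and p-values adjusted by Benjamini-Hochberg over all regions of the line. Each SE is the absolute log2 change divided by the square root of its F statistic, and is not a spread over libraries. Library values are log2 CPM with a prior count of 2 minus the mean of the DMSO libraries. Medians of all 1 Mb steps with members, weighted by their number of regions, were divided by least squares into stretches of at least 3 steps. The penalty was 2 log(steps) times the noise variance. Edges were placed between neighbouring regions within 1.5 Mb by least absolute deviations. Step summaries and step figures used only steps with at least 20 regions. Shares were compared by exact permutation tests in scipy 1.17.1. Scripts were tested on simulated data.

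Named regions were, in each comparison, the largest changes among members above the median mean count whose groups did not overlap, after subtraction of the stretch median for HCC2935 DTP against DMSO. Values for list genes come from the strongest region within 1 kb of a gene start. Gene starts and promoter sequences are from RefSeq, GRCh38.p14, and 1 of the 10 genes set for full values had no member region and is not analysed here. For groups without a count, CPM is given and no fold.

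Same-numbered libraries deviated together in HCC827 (correlations of 0.163 to 0.848 in 9 of 9 pairs), so the block by replicate number is given there. Alternatives were DESeq2 1.42.0, its size factors, library size only, TMM without chromosome 14, other filters, the block, summed libraries, other steps, penalties and promoter definitions, and each library left out. Restriction to strong or peak-supported regions was added after seeing the data.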

Additional observations from a re-analysis of the deposited data

Results flagged for a closer look

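The share of counts on chromosome 14 moved in different directions between lines from DMSO to DTP. It was lower in every DTP library than in every control in HCC2935, by -1.975 percentage points, and in PC9, by -0.023. It was higher in every DTP library in H1975, by 0.1073 points, and in HCC827, by 0.4413. The difference between lines was not tested, and the HCC2935 value belongs to the contrast that chose the chromosome. Among the HCC827 DTP libraries the one with the highest share, replicate 3 with 4.52%, was also the deepest, and the part of depth in the result was not tested. Groups of 3 were not searched for outlying libraries.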

How the results depend on the processing

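Filters moved most values. Median changes at a mean of at least 20 counts were -0.44 for DTP and -0.43 for combo against DMSO in HCC2935, -0.00301 and 0.0209 in PC9, 0.033 for combo in H1975, and 0.14 and 0.19 in HCC827. Regions with 50 counts or more gave -0.28 for DTP and -0.13 for combo in HCC2935, and peak-supported regions -0.30 and -0.35. With no filter the medians were 0.0725 and 0.119 in H1975, 0.11 and 0.22 in HCC827 and -0.013 for combo in PC9. With library size only they were 0.21 and 0.0586 in H1975, 0.11 and 0.23 in HCC827 and 0.0304 for DTP in PC9, and with DESeq2 size factors 0.12 and 0.28 in HCC827 and -0.015 for combo in PC9. The medians of all HCC827 regions moved as well, from 0.06 to -0.04 for DTP and from 0.18 to 0.05 for combo with library size only.

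Counts of members that passed fell with DESeq2 to 2751 for HCC2935 DTP, 170 for combo against DTP and 588 for PC9, and rose to 10 in HCC827. At a mean of at least 20 counts they were 1963, 593 in PC9, 2332 in H1975 and 17 in HCC827, where fewer regions were tested. HCC827 had 8 with no filter and 206 with the replicate block, and PC9 had 639 with libraries summed. The block lost no call of a named region and moved no other count by over 1.5 times, with 5180 members for HCC2935 DTP and 558 for combo against DTP, where same-numbered libraries had correlations of -0.199 to 0.308 and shared only a number. The number of stretches was 17 in steps of 0.5 Mb, 4 with the penalty doubled or promoters only, and 3 with peak-supported regions. The gap between promoters and other regions was 0.10 at a mean of at least 20, 0.12 with peak support, 0.14 with the authors' annotation and 0.068 at 10 kb.

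Leaving out 1 library gave medians of -0.68 to -0.57 for HCC2935 DTP (lowest without DMSO replicate 1), -0.69 to -0.54 for combo, -0.0515 to -0.00432 for H1975 combo, 0.26 to 0.39 for HCC827 combo and -0.0212 to 0.00124 for PC9 combo. It gave 276 to 388 members for combo against DTP (276 without DTP replicate 2, 299 without DTP replicate 1, 321 without combo replicate 2), a share difference of -0.0015 to 0.139, 6 to 9 stretches and a promoter gap of 0.29 to 0.44. Of 44 calls at named regions, 17 were lost without some library and 13 with DESeq2, and no direction turned. Causes were not tested. Depth limits weak members, whose median mean count was 8.67.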
